A study of Mus musculus with 8 samples.

Results

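Expression of 10 microRNA processing and silencing factors was followed in macrophages with and without Nudt21. The genes, Drosha, Dgcr8, Xpo5, Dicer1, Ago1, Ago2, Ago3, Tnrc6a, Tnrc6b and Tnrc6c, were chosen by symbol for their place in the pathway, out of 21080 genes in the expression tables. All 10 were detected in every sample and passed the filter on low values in each comparison. RNA-seq was performed on bone marrow-derived macrophages (BMDMs, bone marrow cells grown into macrophages with M-CSF) of C57BL/6 mice. WT mice were sex-matched littermates carrying LysM-Cre, so both genotypes carry Cre, and Nudt21-cKO mice were Nudt21 fl/fl with LysM-Cre, in which Cre expressed from the lysozyme M locus of myeloid cells removes the floxed exons of Nudt21. Each genotype was sampled at 0 h and after IFNγ overnight followed by LPS for 4 h, with 2 samples in each of the 4 groups and BMDMs of 2 mice pooled in each sample. The 0 h samples were taken as unstimulated from their titles, although their treatment label also lists the stimulation, and the age of the mice was not given in the sources used here. Nudt21 (CFIm25) is a subunit of cleavage factor I, which binds UGUA in RNA and influences where an mRNA is cleaved and polyadenylated.

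MicroRNAs are made in steps. The Microprocessor, formed by the nuclease Drosha and its RNA-binding partner Dgcr8, cuts hairpins out of primary transcripts, Exportin 5 (Xpo5) carries them out of the nucleus, and Dicer1 trims them to the mature duplex. An Argonaute protein (Ago1 to Ago4) then holds the guide strand and pairs it with target mRNAs, and a Tnrc6 (GW182) protein recruits the deadenylases that silence the target, a mechanism that macrophages use to tune the inflammatory response through microRNAs such as miR-155.

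The values were taken as read coverage averaged over the bases of a gene, so levels of different genes are compared only as such averages. Unless the deposited scale is named, differences between groups are log2 differences of coverage after each sample was centred on its median gene, with the limma standard error, since the deposited coverage is not scaled between samples. Centring sets the median gene to no change, so values on the deposited scale are given as well where they bear on a call or a direction. Genes count as called when they differed by over 1.5-fold with an unadjusted p under 0.05, the rule of the study's methods, and the Benjamini-Hochberg adjusted p over all genes tested is given beside it. Each sample pools 2 mice and the labels do not name the mice, so the p-values measure the spread between these samples only. In bulk RNA, fewer cells of a type and less RNA per cell cannot be told apart. Coverage averaged over a transcript also cannot tell a change in abundance from a change in which bases of its 3'UTR were kept. The same limit holds for family shares, ratios between genes and the order of levels, since the 3'UTR makes up unlike parts of the transcripts. In the transcripts with the longest annotated 3'UTR it is 11064 of 13800 bases in Ago2 and 12742 of 15595 in Ago3. In Ago1 it is 4491 of 7227 and in Drosha 169 of 4519.

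Summed coverage was 14950347 to 17954882 per sample. Nudt21 itself had a coverage of 718 and 641 in WT and 158 and 172 in Nudt21-cKO at 0 h, and of 547 and 575 against 142 and 115 at 4 h. It was 4.38-fold lower at 0 h (limma adjusted p = 0.0355) and 5.53-fold lower at 4 h (adjusted p = 0.0441), in the direction of the labels. The 7 macrophage markers were all detected, with a summed coverage of 118243 to 130748 at 0 h and 50581 to 64858 at 4 h, and the activation markers Nos2, Il6, Il12b and Tnf summed to 167 to 308 at 0 h. At 4 h the activation markers summed to 229901 to 291530 in WT and 313162 to 337349 in Nudt21-cKO. Most of this was Tnf, at 207348 and 155252 in WT and 209719 and 236747 in Nudt21-cKO. Nos2 was at 19483 and 20684 in WT and 44731 and 43709 in Nudt21-cKO, and Il6 at 11455 and 8601 against 12091 and 12012. Il12b overlapped between the genotypes, at 53245 and 45364 in WT and 46621 and 44881 in Nudt21-cKO. Macrophage markers moved in different directions with genotype at 0 h: Adgre1 had a coverage of 20130 and 24458 in WT and 13820 and 14295 in Nudt21-cKO, and Cd68 had 45504 and 42908 in WT and 69414 and 73398 in Nudt21-cKO. The neutrophil list summed to 18572 to 19494 in WT and 21167 to 28212 in Nudt21-cKO at 0 h, nearly all from S100a8 and S100a9, while Ly6g stayed at or below 7.37 in every sample. T cell markers summed to at most 3.86 and B cell markers to 125 to 143 in WT and 67.9 to 73.5 in Nudt21-cKO at 0 h. The part of these shifts in the results below was not tested.

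The largest genotype differences among the 10 genes lay in the silencing complex, in Ago2 and Tnrc6b at both times and in Ago3 at 4 h. At 0 h, 2 of the 10 genes were called, both higher in Nudt21-cKO (Ago2 and Tnrc6b), where 7.25% of all 16251 genes tested were called higher, 6.98% lower and 14.2% in either direction. At 4 h, 3 of the 10 were called, Ago2 and Tnrc6b higher and Ago3 lower, where 20.3% of 14950 genes were called, 10.4% higher and 9.90% lower. Without centring, 4 were called at 4 h, with Xpo5 as a further gene higher, where 25.0% of genes were called, 20.8% higher and 4.17% lower. With Benjamini-Hochberg adjustment the limma test called 0 of the 10 at either time, where 1.08% and 1.58% of all genes were called, and the unadjusted p was under 0.05 for 3 of them at 0 h and 4 at 4 h, beside 22.8% and 28.6% of all genes. When the spread was estimated over all 8 samples, the adjusted p was under 0.05 for 1 gene at 0 h (Ago2) and 4 at 4 h (Ago2, Ago3, Tnrc6b and Xpo5), beside 5.48% and 20.6% of all genes. With a variance trend over expression level (limma-trend), it was under 0.05 for Ago2 (0.00993) and Tnrc6b (0.00821) at 0 h, beside 11.7% of all genes, and for Ago2 (0.00379), Ago3 (0.00379) and Tnrc6b (0.0405) at 4 h, beside 18.8%. Quantile normalization gave an adjusted p of 0.0477 for Ago2 at 4 h, where 1.83% of all genes were under 0.05. The median difference of the 10 genes was 0.02 at 0 h and 0.08 at 4 h, beside 0.01 and -0.03 for all genes.

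**Figure D1:**
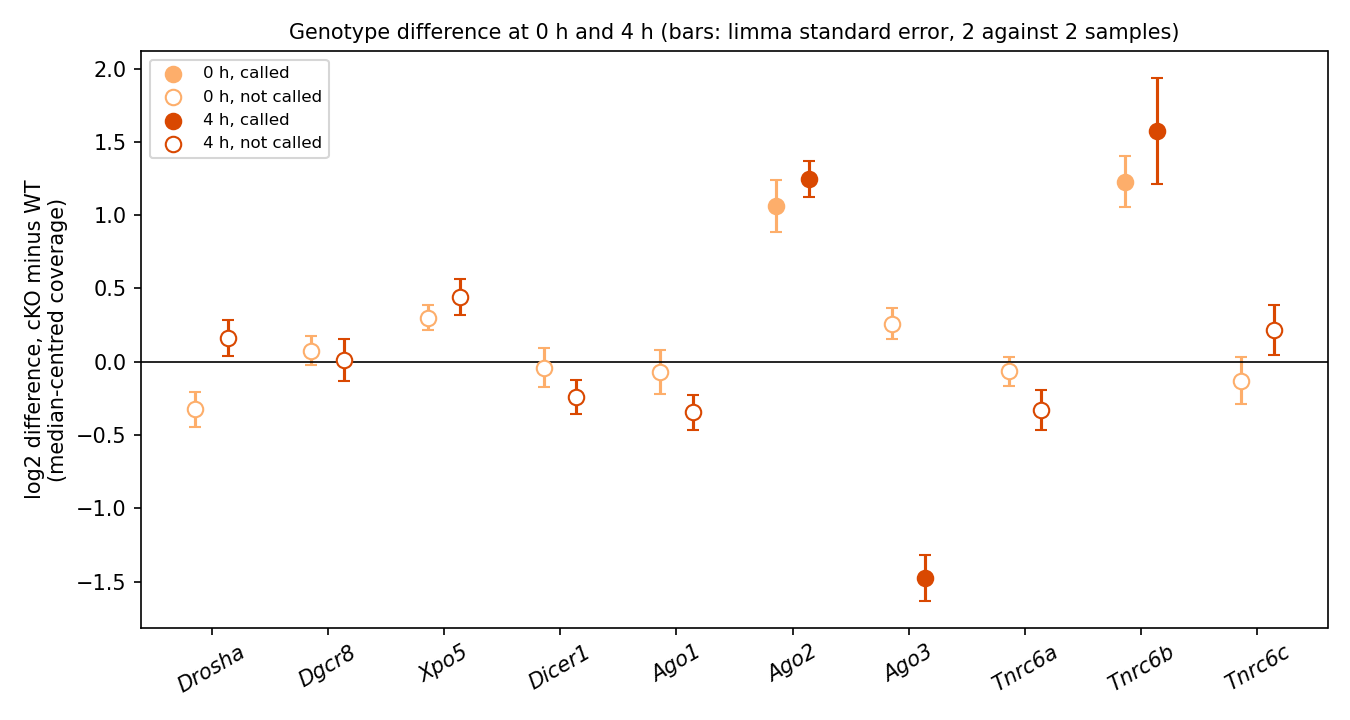
Log2 difference of median-centred coverage between Nudt21-cKO and WT (y axis) for each of the 10 genes (x axis) at 0 h and 4 h, from 2 samples against 2. Bars are limma standard errors and filled points were called. Ago2 and Tnrc6b lie above 1 at both times, Ago3 lies at 0.26 at 0 h and -1.48 at 4 h, and the other 7 genes lie between -0.34 and 0.44.

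Ago2 is the Argonaute with slicer activity, able to cut a fully paired target. Its coverage at 0 h was 524 and 679 in WT and 1301 and 1357 in Nudt21-cKO. At 4 h it was 233 and 249 in WT and 694 and 752 in Nudt21-cKO. The cKO samples were above the WT samples at both times, without overlap, by 2.09-fold at 0 h (log2 difference 1.06 ± 0.18, limma adjusted p = 0.120) and 2.38-fold at 4 h (1.25 ± 0.12, adjusted p = 0.0672). Uncentred differences were 1.16 at 0 h and 1.59 at 4 h (adjusted p = 0.121 and 0.0438), both called. The 0 h call was lost when either cKO sample was left out, at differences of 1.04 and 1.08. With a sample left out, its group holds 1 sample, which is assumed to vary like the other group or groups in the fit, here and in the results that follow. The genotype difference did not differ detectably between the times (interaction 0.16 ± 0.23, adjusted p = 0.716). The Ago2 gene shares 219 exonic bases with Chrac1 on the opposite strand, and the library kit does not mark strand.

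Tnrc6b is a scaffold that links Argonaute to the deadenylases. Its coverage at 0 h was 165 and 211 in WT and 437 and 499 in Nudt21-cKO. At 4 h it was 5.25 and 11.2 in WT and 31.5 and 27.0 in Nudt21-cKO, the lowest of the 10 genes in both genotypes. Again no cKO sample overlapped a WT sample of the same time. The difference was 2.35-fold at 0 h (1.23 ± 0.18, adjusted p = 0.106) and 2.98-fold at 4 h (1.57 ± 0.36, adjusted p = 0.124). Without centring these were 1.32 and 1.91, both called. The 4 h call was lost when either cKO sample was left out, at differences of 1.47 and 1.68, and with unmoderated variances, at 1.57. The interaction was 0.32 ± 0.43 (adjusted p = 0.706), and without WT sample 2 at 4 h it was 0.74 and called.

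Ago3, an Argonaute without strong slicer activity, was the gene whose genotype difference changed with stimulation. At 0 h its coverage was 207 and 228 in WT and 264 and 292 in Nudt21-cKO, a difference of 0.26 ± 0.10 that was not called (adjusted p = 0.283). At 4 h it was 657 and 671 in WT and 328 and 277 in Nudt21-cKO. The order of the genotypes was thus opposite at the 2 times, without overlap at either. At 4 h Ago3 was 2.78-fold lower in Nudt21-cKO (-1.48 ± 0.16, adjusted p = 0.0696), and the uncentred difference of -1.14 was called as well (adjusted p = 0.0563). The change of the genotype difference between the times, tested as an interaction over all 8 samples, was -1.76 ± 0.18 (adjusted p = 0.0208). Ago3 was the only one of the 10 genes called in that test, where 16.3% of 16284 genes were called, 7.47% higher and 8.85% lower, and 2.12% had an adjusted p under 0.05. Without centring, the Ago3 interaction was -1.49 (adjusted p = 0.0277), and 3 of the 10 were called, Drosha and Tnrc6c higher and Ago3 lower, where 17.5% of genes were called, 13.5% higher and 4.05% lower. For Ago3, over 17 alternatives the call held and the adjusted p ranged from 0.00732 to 0.186. It was 0.0589 without WT sample 1 at 0 h and 0.0529 to 0.0872 without any 1 of the 4 cKO samples. No annotated gene overlaps Ago3.

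**Figure D2:**
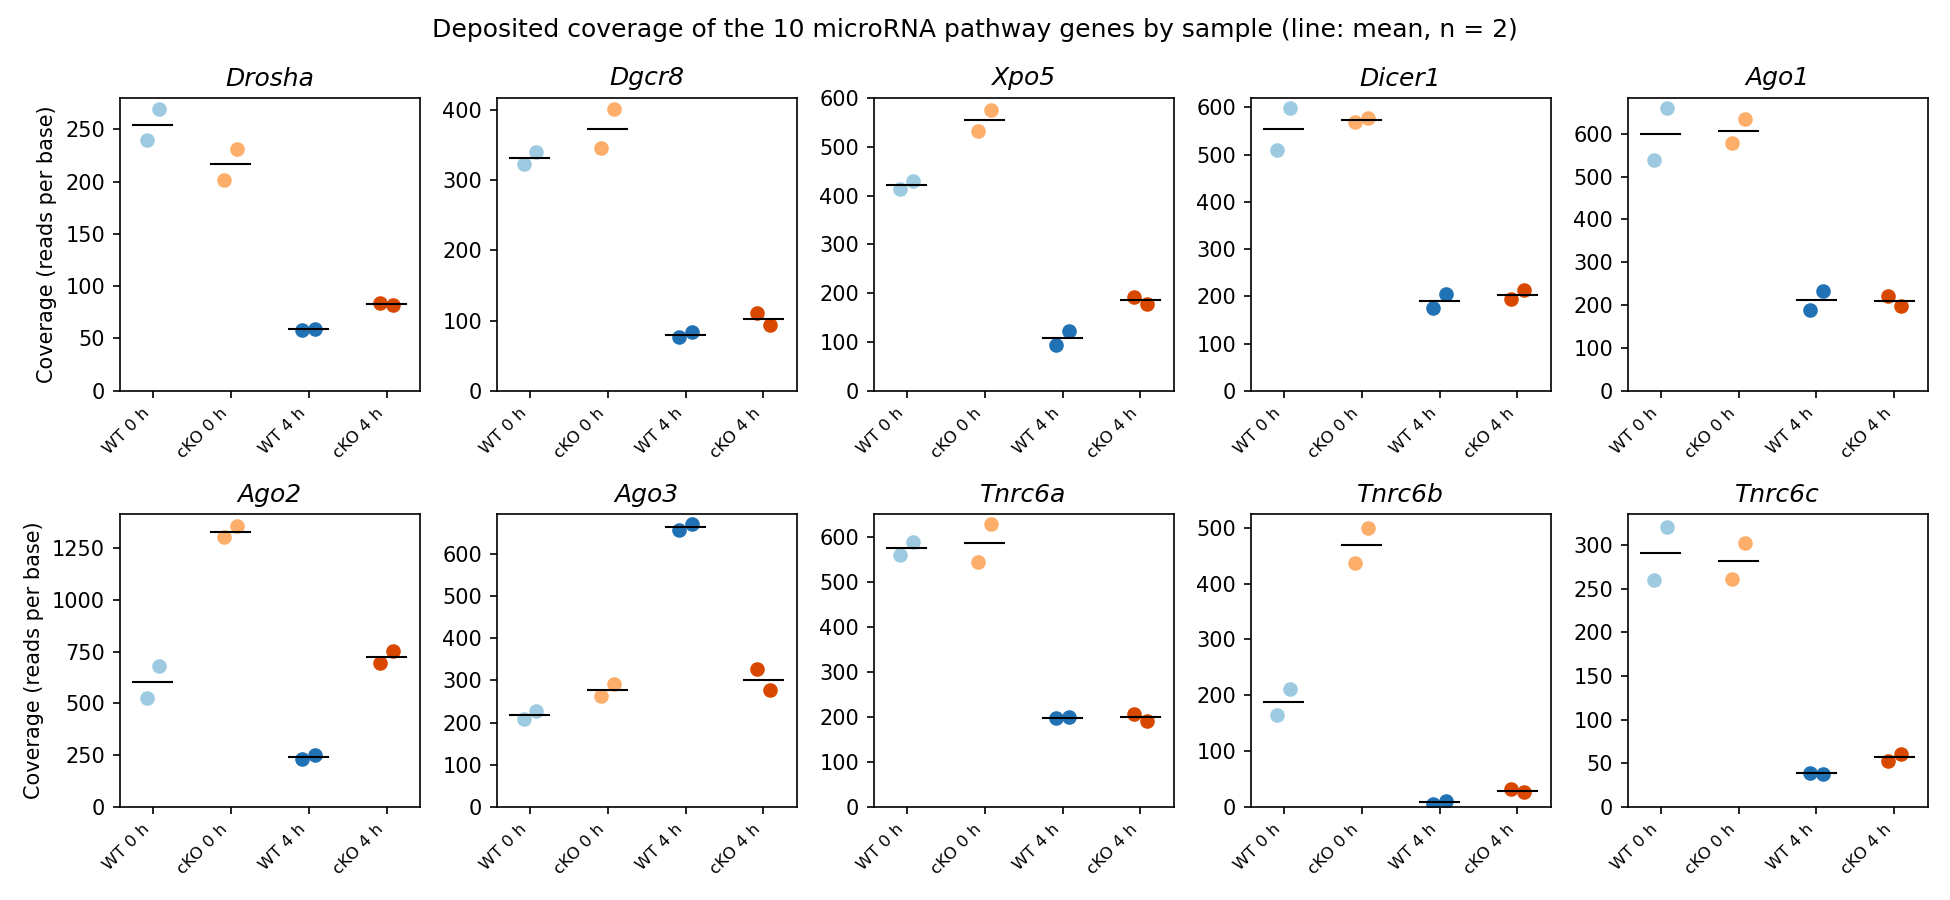
Deposited coverage (reads per base, y axis from 0) of each of the 10 genes in each sample (points) of the 4 groups (x axis), with group means as lines (n = 2). Ago3 is highest in the WT samples at 4 h, at 657 and 671, while Ago2 is highest in the Nudt21-cKO samples at 0 h, at 1301 and 1357.

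The 3 called genes shared one feature that was not used to choose them, an exceptionally long annotated 3'UTR. In GENCODE M21 on GRCm38 the longest 3'UTR is 11064 bases in Ago2, 12742 in Ago3 and 11609 in Tnrc6b, at the 99.8, 99.9 and 99.8 percentile of 16368 genes, whose median is 1088 bases. The other 7 genes have 169 (Drosha) to 4491 (Ago1) bases. UGUA, searched on the transcript strand, occurs 59 times in the Ago2, 67 times in the Ago3 and 62 times in the Tnrc6b 3'UTR. Per kilobase these are 5.33, 5.26 and 5.34, close to the median of 5.005 over all genes and of 5.35 over the 55 genes with at least 10000 bases, so the number goes with length rather than density. At least 1 UGUA is found in 87.6% of all 3'UTRs and in 100% of those 55, and a match is a description of the letters, not a binding site. Among the 35 tested genes with a 3'UTR of at least 10000 bases, these 3 included, 14.3% were called higher and 5.71% lower at 0 h, and 20% higher and 14.3% lower at 4 h. Without the 3 genes, 9.38% of the other 32 were called higher and 6.25% lower at 0 h, and 15.6% higher and 12.5% lower at 4 h. Over all genes with an annotated 3'UTR the shares were 6.24% and 6.67% at 0 h and 10.3% and 9.61% at 4 h. Whether 3'UTR length has a part in the differences was not tested.

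The windows of 30 bases richest in the motif are printed below for the 3 called genes and for Dicer1, which was not called, as the DNA of the transcript strand with TGTA in capitals. They lie in the 3'UTR exon at chr15:73098771-73098800 on the minus strand for Ago2, chr4:126333663-126333692 on the minus strand for Ago3, chr15:80931605-80931634 on the plus strand for Tnrc6b and chr12:104691440-104691469 on the minus strand for Dicer1 (GRCm38). The Ago3 window holds 4 motifs in a row, the Ago2 window 3, and the other windows 2 each. Each was picked as the richest of its 3'UTR, and a longer 3'UTR offers more windows, so the counts are not compared between genes.
Ago2: cTGTAtgtcatggacatgttTGTAccTGTA
Ago3: aaaacagtgctgttTGTATGTATGTATGTA
Tnrc6b: aacccaaaattgcaTGTAagtggcttTGTA
Dicer1: gataacagaataaaacaTGTAatatgTGTA

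The genes also lie close together in part. Ago1 (chr4:126435012-126468583), Ago3 (chr4:126331704-126429556) and Ago4 (chr4:126489541-126533472) form a cluster on the minus strand of chromosome 4. Ago2 lies apart, at chr15:73095844-73184935 on the minus strand. Within that cluster the genotype differences at 4 h had different signs, with -1.48 for Ago3 and 0.91 ± 0.11 for Ago4 (adjusted p = 0.0721, called higher). Uncentred, they were -1.14 and 1.24, both called. Ago1 was at -0.34 ± 0.12 after centring and -0.0079 without it, where its genotypes overlapped, and was not called on either scale.

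The make-up of each family followed these shifts. Ago2 held 34.2% ± 1.49 (SD, n = 2) of the coverage of Ago1 to Ago4 in WT at 0 h and 51.1% ± 0.757 in Nudt21-cKO. After IFNγ/LPS it held 21.2% ± 0.0496 in WT and 56.6% ± 3.81 in Nudt21-cKO. Ago3 held 12.5% ± 0.905 in WT and 10.7% ± 0.288 in Nudt21-cKO at 0 h. At 4 h Ago3 was the largest share in WT, at 58.6% ± 1.98, and held 23.6% ± 2.57 in Nudt21-cKO. The ratio of Ago2 to Ago3 in the WT samples was 2.53 and 2.98 at 0 h and 0.355 and 0.371 at 4 h, and in the cKO samples 4.93 and 4.65 at 0 h and 2.12 and 2.72 at 4 h, so that Ago2 exceeded Ago3 in every sample except the stimulated WT samples. The summed Argonaute coverage was 1751 ± 244 in WT and 2604 ± 116 in Nudt21-cKO at 0 h, and 1134 ± 55.4 and 1278 ± 13.7 at 4 h. Tnrc6b held 17.8% ± 1.46 of the Tnrc6 coverage in WT and 35.0% ± 0.181 in Nudt21-cKO at 0 h, and 3.34% ± 1.65 and 10.2% ± 0.805 at 4 h. Tnrc6a was the largest Tnrc6 share in every group, from 43.9% ± 0.0768 in Nudt21-cKO at 0 h to 80.9% ± 0.985 in WT at 4 h. With 2 samples against 2 an exact permutation test of a share cannot go below p = 0.333, so the shares are given without a test.

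**Figure D3:**
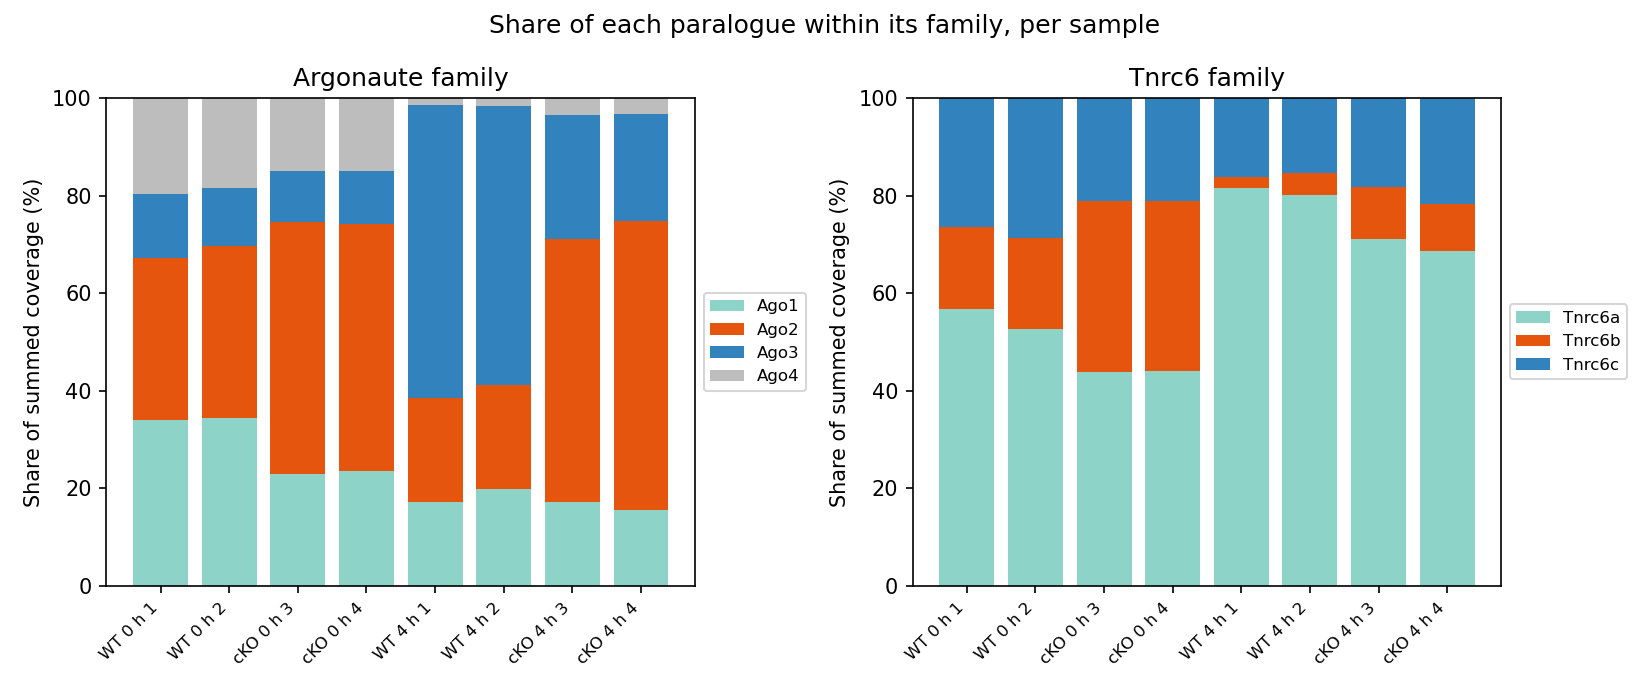
Share of summed coverage (%, y axis) of each Argonaute and each Tnrc6 gene in each of the 8 samples (x axis). Ago3 takes 58.6% of Argonaute coverage on average in stimulated WT and 23.6% in stimulated Nudt21-cKO, while Ago2 takes 21.2% and 56.6%.

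No processing factor was called between the genotypes after centring, and on the deposited scale Xpo5 was called at 4 h. Drosha, the nuclease of the Microprocessor, had a coverage of 240 and 269 in WT and 202 and 232 in Nudt21-cKO at 0 h (-0.32 ± 0.12, adjusted p = 0.254), and of 57.7 and 59.5 against 83.5 and 82.0 at 4 h (0.16 ± 0.12, adjusted p = 0.456). The uncentred difference at 4 h was 0.50 (adjusted p = 0.0812), below the fold threshold, although the genotypes did not overlap. Its interaction was 0.46 ± 0.17 (adjusted p = 0.203), below the fold threshold, and 0.73 on the deposited scale, where it was called (adjusted p = 0.0896, with a range of 0.0896 to 0.420 over the alternatives). Dgcr8, its RNA-binding partner, had 324 and 340 in WT and 346 and 401 in Nudt21-cKO at 0 h, and 76.5 and 83.1 against 110 and 93.3 at 4 h, with differences of 0.08 ± 0.10 and 0.01 ± 0.14. Uncentred, its cKO samples were higher at both times without overlap, by 0.17 and 0.35 (adjusted p = 0.213 at 4 h), and neither difference was called. The ratio of Drosha to Dgcr8 was 0.740 and 0.793 in WT at 0 h, 0.583 and 0.578 in Nudt21-cKO at 0 h, 0.754 and 0.716 in WT at 4 h, and 0.757 and 0.879 in Nudt21-cKO at 4 h, so the unstimulated cKO samples were the lowest of the 8. Dgcr8 shares 825 exonic bases with Trmt2a on the opposite strand, so its reads are uncertain.

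Xpo5, the export receptor, had a coverage of 414 and 429 in WT and 532 and 576 in Nudt21-cKO at 0 h. At 4 h it had 94.5 and 123 in WT and 193 and 178 in Nudt21-cKO. The cKO samples were higher at both times without overlap, by 0.30 ± 0.09 (limma adjusted p = 0.201) and 0.44 ± 0.12 (adjusted p = 0.15), and neither passed the fold threshold. On the deposited scale, where the median gene is 0.31 higher in Nudt21-cKO at 4 h, Xpo5 was called higher (0.78, adjusted p = 0.101). Dicer1, which cuts the exported hairpin, had 511 and 599 in WT and 570 and 577 in Nudt21-cKO at 0 h, and 175 and 206 against 194 and 213 at 4 h. Its differences of -0.04 ± 0.13 and -0.24 ± 0.11 did not pass the test, and both turn positive on the deposited scale.

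Ago1, Tnrc6a and Tnrc6c, the other members of the silencing families, were not called at either time. Ago1 ranged from 538 to 660 over the 4 samples at 0 h and from 189 to 234 at 4 h, Tnrc6a from 545 to 628 at 0 h and from 192 to 207 at 4 h, and Tnrc6c from 260 to 321 at 0 h. At 4 h Tnrc6c had 39.2 and 38.0 in WT and 52.9 and 60.7 in Nudt21-cKO, a difference of 0.21 ± 0.17 after centring (limma adjusted p = 0.466) and of 0.55 on the deposited scale (adjusted p = 0.0951), where its interaction of 0.59 was called (adjusted p = 0.211). After centring, the genotypes did not overlap for 5 of the 10 genes at 0 h and 8 of 10 at 4 h, beside 58.7% and 64.0% of all genes, and on the deposited scale for 6 and 7, beside 57.0% and 66.0%.

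In WT at 0 h the order of the levels was Ago2, Ago1, Tnrc6a and Dicer1, each of which overlapped the next, then Xpo5, Dgcr8, Tnrc6c, Drosha, Ago3 and Tnrc6b. Tnrc6c overlapped Drosha, and Ago3 overlapped Tnrc6b. In Nudt21-cKO at 0 h Ago2 stood first without overlap and Drosha last, and Tnrc6b stood sixth. At 4 h Ago3 was first in WT and Ago2 in Nudt21-cKO, both without overlap with the next, and Tnrc6b was last in both. The genes whose centred values followed Ago2 most closely over the 8 samples, as a description, were Dnajc5 (Pearson r = 0.994), Muc19 (0.993) and Rdh13 (0.989), and those nearest to Dicer1 were Zfp68 (0.973), Dlg3 (0.962) and Fam229b (0.953), chosen from 16284 genes that share the same libraries.

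IFNγ/LPS itself changed several of the genes in WT. Ago3 rose 8.35-fold (3.06 ± 0.17, adjusted p = 0.00366). Tnrc6b fell 8.79-fold (-3.14 ± 0.38, adjusted p = 0.0119), Tnrc6c 2.73-fold (-1.45 ± 0.22, adjusted p = 0.0170), Drosha 1.58-fold (-0.66 ± 0.17, adjusted p = 0.0507) and Dgcr8 1.52-fold (-0.60 ± 0.14, adjusted p = 0.0435). The Drosha and Dgcr8 calls were lost without either WT sample at 0 h (-0.77 and -0.59 for Drosha, -0.66 and -0.58 for Dgcr8) and without WT sample 2 at 4 h (-0.56 and -0.54). In all, 5 of the 10 were called, where 55.9% of 16002 genes were called, 33.5% higher and 22.4% lower, so the number is no more than that of genes at large. The adjusted p was under 0.05 for 4 of the 10, beside 50.7% of all genes. The median gene was 1.27 log2 units lower in stimulated WT samples on the deposited scale, and there all 10 were called, Ago3 higher (1.61) and the other 9 lower, with Tnrc6b at -4.59, Tnrc6c at -2.90, Drosha at -2.11 and Dgcr8 at -2.05, where 67.0% of genes were called, 11.9% higher and 55.1% lower. Ago2 showed this dependence most plainly, with 0.14 ± 0.21 after centring and -1.31 on the deposited scale. Summed coverage differed little between the times in WT, and scaling to equal summed coverage gave -1.26.

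In Nudt21-cKO, 4 of the 10 genes were called after centring, where 55.9% of 16223 genes were called, 32.7% higher and 23.2% lower. Ago3 rose 2.50-fold (1.32 ± 0.11, adjusted p = 0.00510), Tnrc6b fell 6.94-fold (-2.79 ± 0.11, adjusted p = 0.00160), Tnrc6c fell 2.15-fold (-1.11 ± 0.13, adjusted p = 0.00947) and Dgcr8 fell 1.59-fold (-0.67 ± 0.11, adjusted p = 0.0219). The adjusted p was under 0.05 for 7 of the 10, beside 60.0% of all genes. The Dgcr8 call was lost without either cKO sample at 0 h (-0.74 and -0.64) and without cKO sample 4 at 4 h (-0.57). On the deposited scale, where the median gene was 1.05 lower, Ago3 was at 0.12 and not called and the other 9 were called lower, with Tnrc6b at -4.00, Tnrc6c at -2.31 and Dgcr8 at -1.88, where 66.9% of genes were called in either direction. The falls of Tnrc6b, Tnrc6c and Dgcr8 in both genotypes and the rise of Ago3 in WT had the same direction on both scales. Ago2 was 0.32 ± 0.09 after centring and -0.88 on the deposited scale. These comparisons share samples with the genotype comparisons above.

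**Figure D4:**
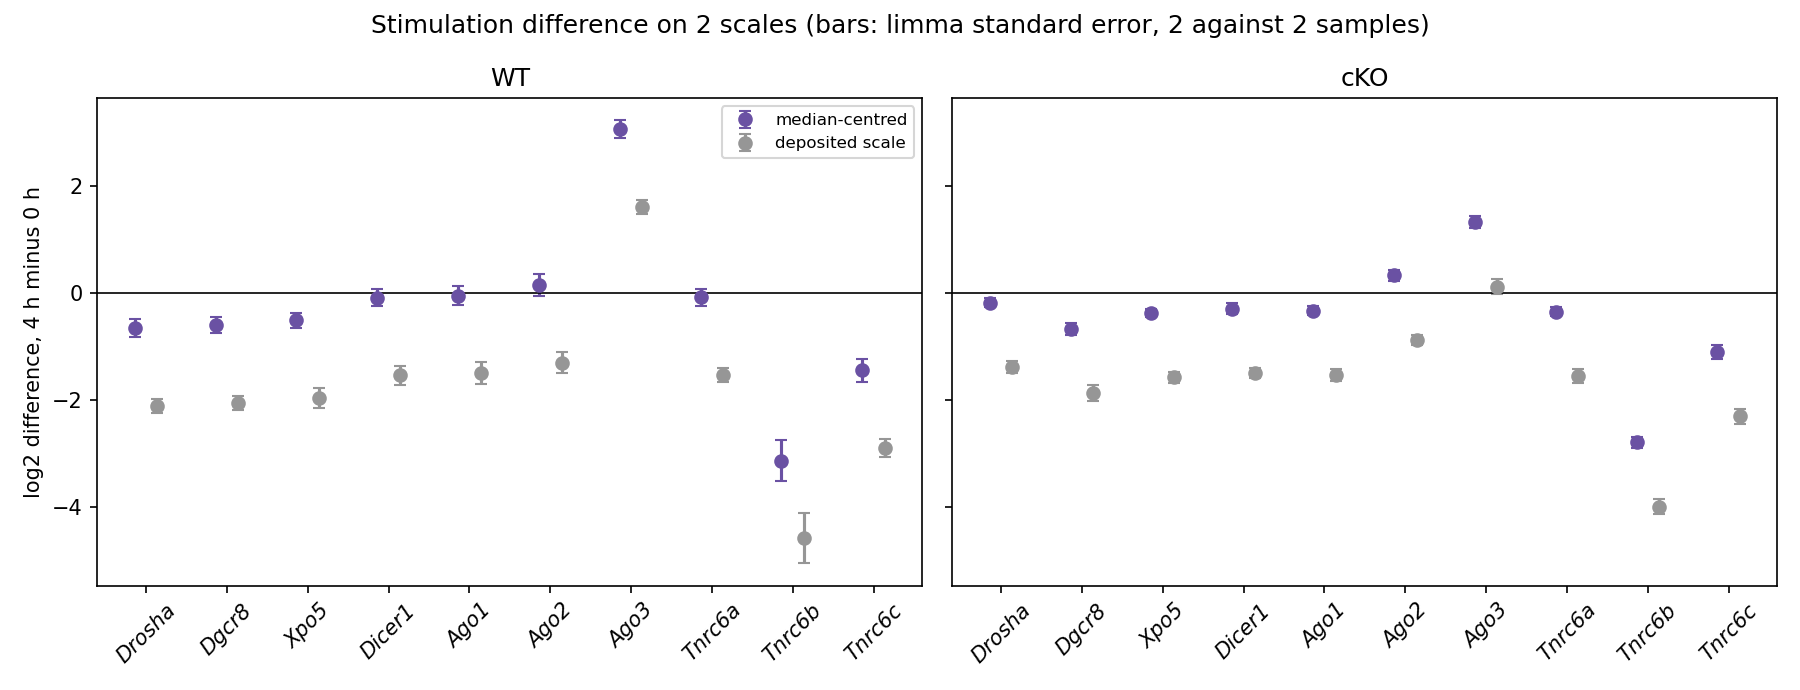
Log2 difference between 4 h and 0 h (y axis) of the 10 genes (x axis) in WT and Nudt21-cKO, after median-centring and on the deposited scale, with limma standard errors (2 samples against 2). Tnrc6b lies lowest and Ago3 highest in both panels on both scales, while Ago2 lies above 0 after centring and below 0 on the deposited scale.

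Other genes of the pathway, 38 of them with 37 tested, moved with genotype in small numbers. At 0 h 2 were called higher and 0 lower, and at 4 h 4 higher and 1 lower, with medians of 0.04 and 0.05, beside 7.25% higher and 6.98% lower of all genes at 0 h and 10.4% and 9.90% at 4 h. Uncentred values gave 3 higher and 0 lower at 0 h, beside 8.99% higher of all genes, the further gene being Fxr1, an RNA-binding protein found with Argonautes, at 1794 and 1846 in WT and 2698 and 2932 in Nudt21-cKO (0.63, adjusted p = 0.131, and 0.54 after centring). They gave 8 higher and 0 lower at 4 h, with Khsrp, Mov10, Pan2 and Snd1 as the further genes, with a median of 0.39 beside 0.31 for all genes, of which 20.8% were higher and 4.17% lower. Among the Microprocessor cofactors, Ncbp2, the small subunit of the nuclear cap-binding complex, had a coverage of 667 and 602 in WT and 1407 and 1631 in Nudt21-cKO at 0 h, and 238 and 217 against 971 and 1047 at 4 h. It was called higher at both times (1.16 ± 0.11, adjusted p = 0.0739, and 1.81 ± 0.18, adjusted p = 0.0680). Erh, a Microprocessor-associated protein, was called lower at 4 h, at 563 and 506 in WT and 431 and 444 in Nudt21-cKO (-0.62 ± 0.18, adjusted p = 0.161), but not on the deposited scale (-0.29).

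Of the Dicer partners, Tarbp2, which binds Dicer1, was called higher at 4 h (0.64 ± 0.11, adjusted p = 0.0943), at 224 and 246 in WT and 457 and 469 in Nudt21-cKO. Tut4, a terminal uridylyltransferase that marks precursor microRNAs, was called higher at 4 h (0.83 ± 0.11, adjusted p = 0.0782), at 83.2 and 100 in WT and 199 and 213 in Nudt21-cKO. Ago4 had 16.8 and 20.01 in WT and 45.1 and 42.1 in Nudt21-cKO at 4 h. Lin28a, a repressor of let-7 maturation, was called higher at 0 h, but at a coverage of 0.480 to 3.54 in the 4 samples. In the interaction, 3 of the 37 were called higher (Ncbp2, Ago4 and Tut4) and 1 lower (Eif4enif1, -0.61), beside 7.47% and 8.85% of all genes, and on the deposited scale 7 were higher and 0 lower, beside 13.5% and 4.05%. Of the 8 silencing effectors that act with or downstream of Tnrc6 proteins, 0 were called at either time, beside 14.2% and 20.3% of all genes, and the unadjusted limma p was under 0.05 for 0 at 0 h and 2 at 4 h, beside 22.8% and 28.6%. With 8 genes these counts are too small to set the list apart. Pan2, a deadenylase, was called higher at 4 h on the deposited scale (0.81, adjusted p = 0.0600), where 25.0% of all genes were called. Stimulation raised 21 and lowered 4 of the 37 in WT after centring, with a median of 0.69 beside 0.18 for all genes, of which 33.5% were higher and 22.4% lower. On the deposited scale it raised 4 and lowered 20, beside 11.9% and 55.1% of all genes.

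**Figure D5:**
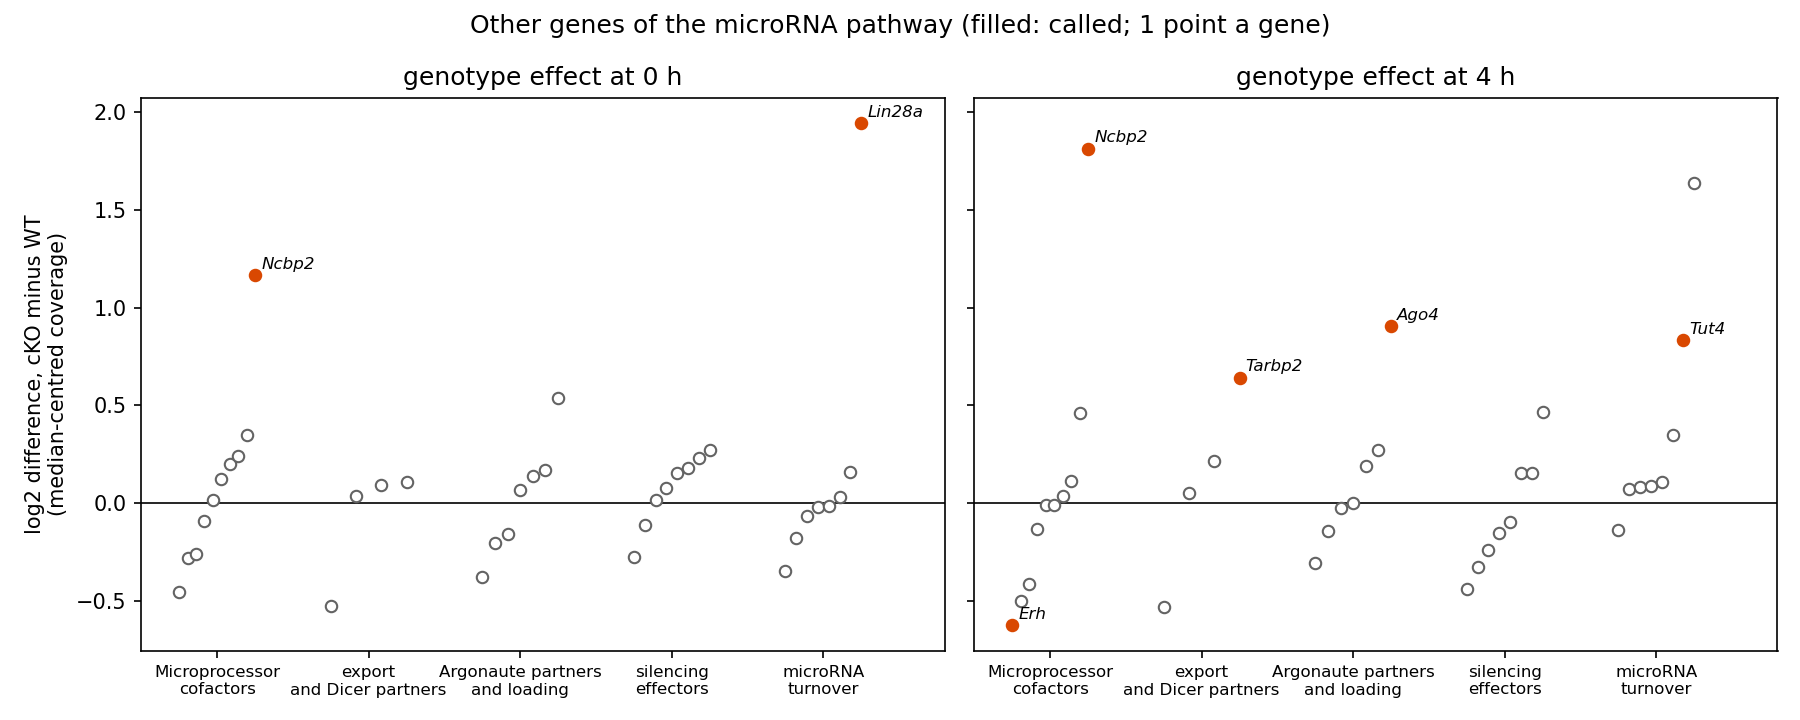
Log2 difference of median-centred coverage between Nudt21-cKO and WT (y axis) of the other pathway genes, 1 point a gene, by list (x axis), at 0 h and 4 h. Filled and named points were called, with Ncbp2 at 1.16 and 1.81.

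The tables hold 10 rows of microRNA host transcripts, which carry the primary hairpin and are not a measure of the mature microRNA. Mir155hg, the host of miR-155, was listed at 0 in all 4 samples at 0 h and at 611 and 614 in WT and 801 and 651 in Nudt21-cKO at 4 h, with no genotype difference called (-0.10 ± 0.18, adjusted p = 0.741). Uncentred, the sign turned (0.24, adjusted p = 0.365), with the cKO samples the higher. Mir142hg, which spans miR-142, had 16.6 and 21.7 in WT and 82.1 and 81.9 in Nudt21-cKO at 0 h and was called higher there (2.01 ± 0.19, adjusted p = 0.0744). At 4 h it had 13.5 and 6.92 against 12.97 and 10.4 and was not called (-0.07, and 0.26 on the deposited scale), and the interaction was -2.11 ± 0.59 (adjusted p = 0.135). Mir22hg had 392 and 258 in WT and 496 and 483 in Nudt21-cKO at 0 h and 595 and 500 against 787 and 828 at 4 h, and was not called. Mir17hg had 19.3 and 15.7 in WT and 6.38 and 0 in Nudt21-cKO at 0 h, the largest host difference (-4.53), and was not called. At 0 h 1 of the 7 host rows tested was called, beside 14.2% of all genes. At 4 h 1 of the 8 tested was called, beside 20.3% of all genes, and this was Mir9-3hg, the host of a miR-9 gene. It was listed at 0 in all 4 samples at 0 h and at 10.8 and 12.9 in WT and 40.9 and 27.1 in Nudt21-cKO at 4 h, and was called higher then (1.15 ± 0.25, adjusted p = 0.118). The hairpins of miR-155 and miR-22 lie in exons of their hosts, and that of miR-142 within the gene but outside its annotated exons.

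The main mature strands of these hosts are shown because they are what the 10 factors would process and load, with the seed (bases 2 to 8) in capitals, from RefSeq on GRCm38.p6. No seed is shared between them. On the plus strand they lie at chr16:84714143-84714165, chr11:87756903-87756925, chr11:87756867-87756887 and chr11:75463772-75463793, in the order given.
miR-155-5p: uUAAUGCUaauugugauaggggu
miR-142a-3p: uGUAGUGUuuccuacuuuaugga
miR-142a-5p: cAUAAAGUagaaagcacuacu
miR-22-3p: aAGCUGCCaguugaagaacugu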

How the data were processed

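RNA-seq reads of 8 BMDM samples were aligned by the authors with HISAT2 2.2.1 to mm10 (GRCm38) and RefSeq genes were quantified with StringTie 2.1.7. The deposited values are a coverage signal per gene and sample, 1 table for each time. The unit is not named and was read from the values. Read numbers per gene are not known, so precision rests on the spread between samples. The authors' fold changes, p-values and calls in the tables were not used, and 0 columns of per-sample values were left out. The members and gene lists were chosen with earlier results of these data known.

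Groups were compared with limma (version 3.58.1, R version 4.3.3). Coverage was taken as log2 after adding 0.1, which understates changes of low genes, over genes with a mean of at least 0.5 in the samples compared. Each sample was centred on its median, and the deposited scale is given beside it. Calls needed a fold change over 1.5 and p under 0.05. Adjusted p-values are Benjamini-Hochberg values over all genes tested. The 10 members were named throughout, and other pathway genes where called in a genotype comparison. Alternatives covered the pseudocount, filter, scaling, variance, samples in the fit, replicate block and leaving out each sample. The comparison was run on simulated data with known changes. Their spread between samples was set smaller than in these data, so the run does not gauge the error rate here. Positions and 3'UTRs came from GENCODE M21.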

Additional observations from a re-analysis of the deposited data

Results flagged for a closer look

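Ago3 stood out because its genotype difference differed between the times by a test of that difference, the interaction of genotype and time over all 8 samples (-1.76 on the log2 scale, limma adjusted p = 0.0208). Both cKO samples were above both WT samples at 0 h and below them at 4 h.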

How the results depend on the processing

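With 2 samples per group the spread is itself poorly known. With an adjusted p under 0.05 as the threshold (limma, Benjamini-Hochberg), the number of the 10 genes called was 0 at 0 h, 0 at 4 h and 7 for stimulation in Nudt21-cKO, beside 60.0% of all genes there. By the rule used throughout, a fold over 1.5 with an unadjusted p under 0.05, the number on the deposited scale was 3 for the interaction, 10 for stimulation in WT and 9 in Nudt21-cKO. Beside these, 17.5%, 67.0% and 66.9% of all genes were called. With equal summed coverage it was 2, 10 and 9, and quantile normalization gave 8 for stimulation in Nudt21-cKO. For those scalings, and with 1 sample left out or the replicate block, the share of all genes called was not computed. These counts are therefore not set against genes at large. Leaving out 1 sample gave 1 to 2 at 0 h, 1 to 2 for the interaction, 3 to 5 for stimulation in WT, 2 to 3 at 4 h and 3 to 4 for stimulation in Nudt21-cKO.

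Some differences changed sign between settings, and none of these was called under the main setting. On the deposited scale Dicer1, Ago1 and Tnrc6a were at 0.053, 0.023 and 0.028 at 0 h, Dicer1 and Tnrc6a at 0.097 and 0.0077 at 4 h, and the interaction of Dicer1 and Dgcr8 at 0.044 and 0.18. Dgcr8 at 4 h was at -0.0035 with no filter and -0.021 with a mean coverage of at least 1, and its interaction was 0.090 with equal summed coverage. The Ago2 interaction was -0.16 with quantile normalization. Ago2 under stimulation in WT was at -1.31 on the deposited scale, -0.42 with quantile normalization and -1.26 with equal summed coverage, and in Nudt21-cKO at -0.88, -0.57 and -0.92. The Ago2 differences on the deposited scale were called lower in both genotypes. Ago1 under stimulation in WT was 0.020 with no filter. The cause of these changes was not tested.

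Leaving out 1 sample gave -0.17 to 0.085 for Dicer1, -0.23 to 0.088 for Ago1 and -0.30 to 0.033 for Tnrc6c at 0 h, and -0.11 to 0.13 for Dgcr8 at 4 h. For the interaction it gave -0.026 to 0.37 for Ago2, -0.19 to 0.020 for Dgcr8 and -0.098 to 0.74 for Tnrc6b. For stimulation in WT it gave -0.23 to 0.010 for Dicer1, -0.23 to 0.080 for Ago1, -0.069 to 0.31 for Ago2 and -0.19 to 0.033 for Tnrc6a.

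Replicate numbers recur at the 2 times within a genotype, but the deviations of samples with the same number correlated at only 0.0796 in WT and 0.0532 in Nudt21-cKO. The labels do not say whether a number marks a shared pool of mice, so pairing was not shown. With the replicate block 3 genes were called for stimulation in WT, 4 in Nudt21-cKO and 1 in the interaction (Ago3, adjusted p = 0.186).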
